A study of Xenopus laevis with 6 samples.

Results

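The enzymes of central carbon metabolism were followed in the 8-cell embryo of *Xenopus laevis*, in RNA from its animal and its vegetal pole. They were chosen by name, from a list of 47 gene symbols covering glycolysis, the lactate step, the pentose phosphate path, the pyruvate step, the citrate cycle and gluconeogenesis. Probe sets whose annotated symbol, without the ending .L or .S, was on the list were taken. In this allotetraploid frog most genes have 2 copies (homeologs), marked .L and .S, and each copy was counted as a gene of its own. The list gave 79 probe sets for 56 genes, out of 11303 genes with a probe set of a single symbol, and the brightest probe set stood for each gene. Of the 47 symbols, 43 were matched, and no probe set with a single symbol matched *pfkl*, *eno2*, *fh* or *pcx*.

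The study compared 3 arrays of animal blastomeres, which form the upper tier, with 3 arrays of vegetal blastomeres from which the equatorial part had been cut off, so that only their vegetal-most portion was used. The groups differ in the labels only by position in the embryo, with no genotype, strain or treatment of their own named for either. Natural matings, induced by hormone in 2 adult pairs, gave the embryos, which lost their jelly in cysteine and were fixed in ethanol with acetic acid before dissection. The labels do not say how many embryos went into a sample or whether the replicates are of different clutches, and the p-values cover only the spread between these arrays, which may be technical. The embryo's own genome is silent at this stage, so its RNA is maternal, and none of 10 genes of later embryos passed the filter described below. In such bulk samples, fewer cells of a type and less RNA per cell cannot be told apart. Levels are also relative to each array's own mean, and the vegetal samples were cut portions of cells, so amounts per cell were not measured.

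Glycolysis breaks glucose down to pyruvate in the cytosol, and lactate dehydrogenase can turn that pyruvate into lactate. The pentose phosphate path branches off to give NADPH and the ribose for nucleotides. In mitochondria, pyruvate dehydrogenase makes acetyl-CoA, which the citrate cycle oxidises. The amphibian egg takes up no food and carries yolk, lipid and glycogen as its stores, so that the RNAs of these enzymes in the cleaving embryo are part of the maternal supply.

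Each array had a 2% trimmed mean intensity of 150, the common target to which the deposited values were scaled. The highest of 59 control probe sets for RNAs that were not added ("unspiked controls") lay between 4.1 and 6.7 per array and was taken as background. Markers of the poles went with the labels, though these lists were chosen with earlier results of these data known. All 8 tested vegetal pole genes, *vegt* and *nanos1* among them, were higher in vegetal samples, and all 5 tested animal pole genes, *foxi2* and *dand5* among them, were higher in animal samples. Of the 8, *grip2.L*, at 2.8, 3.1 and 7.8 on the animal arrays, passed the filter described below only through its vegetal values and had to differ. Of 11 blood genes 8 were at or under background on all 6 arrays, as were 4 of 6 follicle cell genes. The summed level of the follicle list was 630 to 653 on animal and 1882 to 2154 on vegetal arrays. Nearly all of it came from *cyp17a1.L*, a steroid-making enzyme, and its part in any result below was not tested. The blood list summed to 36.3 to 39.4 on animal and 37.7 to 46.8 on vegetal arrays, and its 1 tested gene, *spib.S*, was 1.64-fold higher at the vegetal pole (limma adjusted p = 0.047).

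Central carbon enzymes were split between the poles. Of the 56 genes, 47 passed the filter on low intensity, a geometric mean of 6.94 over all 6 arrays, and 9 did not. Of the 47 tested, 9 were higher at the animal pole, 11 at the vegetal pole and 27 did not pass (limma adjusted p under 0.05 over all probe sets). Among all 8026 genes tested, 27.1% were higher at the animal and 23.7% at the vegetal pole. The enzymes were called in 42.6% of cases and all tested genes in 50.9%, so the share called was not above the background. At 1.5-fold or more, 4 of the 47 enzymes were higher at the animal and 7 at the vegetal pole. Of all 8026 genes tested, 1336 (16.6%) and 1036 (12.9%) were. The 7 include *hk1.L*, which had to differ, as described below. The 3 animal and 3 vegetal values did not overlap for 21 of the 47 enzymes and for 58.3% of all genes tested. The median difference of the enzymes was -0.04 (log2, animal minus vegetal), and that of all genes tested was 0.03. Small differences depend on how the arrays were scaled to each other. Animal-higher calls were 45% of the enzymes' calls as deposited, 30.4% (7 against 16) with quantile normalization and likewise with array medians set equal, and 56.2% (9 against 7) with spiked controls set equal. The spiked controls were 27 control probe sets for bioB, bioC, bioD and cre. Setting them equal was 1 more scaling, not a measure of embryo RNA amount, and it moved the median of all genes tested to 0.27 (log2). Quantile normalization moved that median to -0.02 and equal array medians moved it to -0.12. Shares of all genes called toward each pole are not set beside these splits, so the changes are not read as particular to the enzymes.

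**Figure D1:**
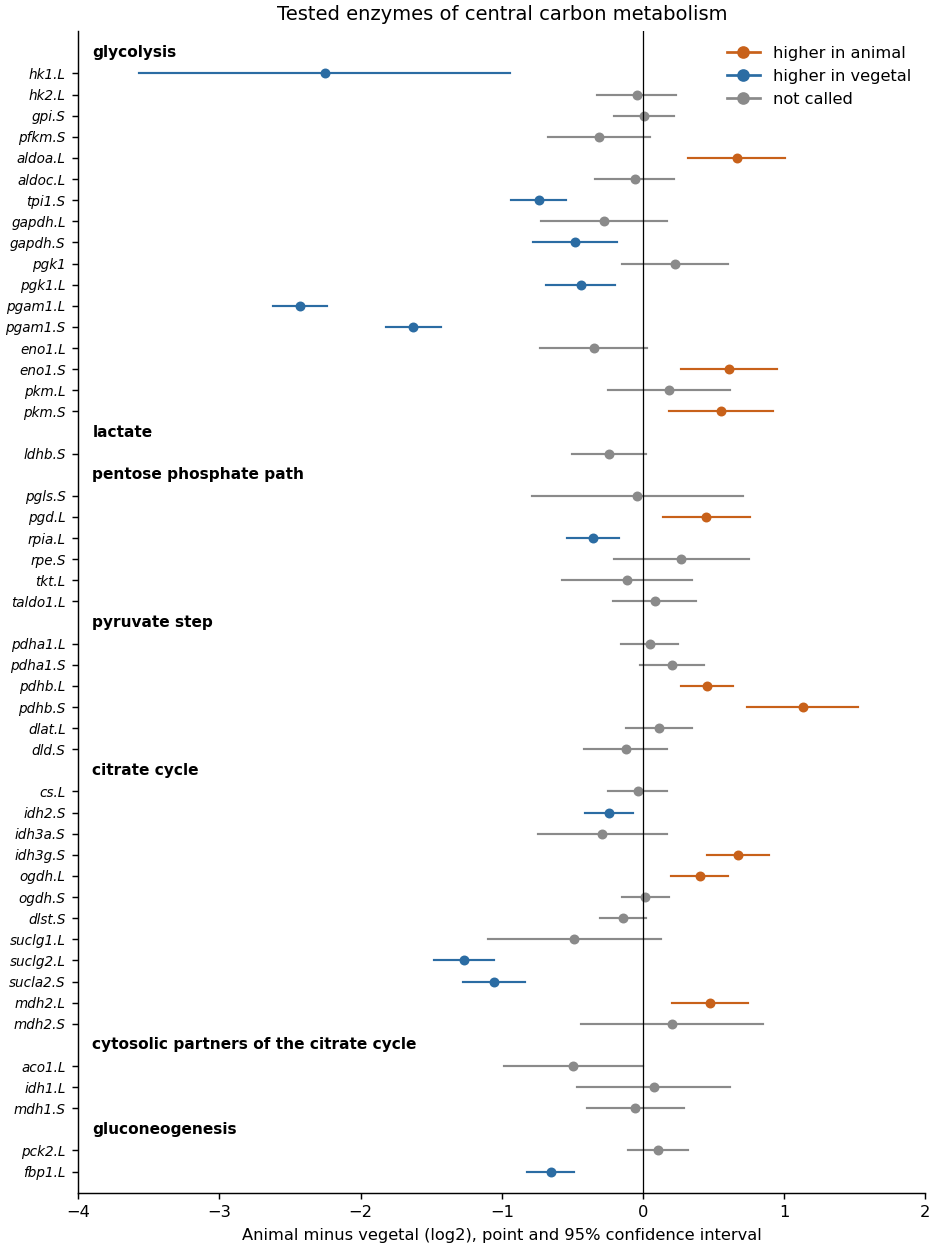
Difference between animal and vegetal samples (log2, horizontal axis) for each of the 47 tested enzymes, grouped by step, with 95% confidence intervals from the limma fit over 3 arrays a group; orange is called higher in animal, blue called higher in vegetal and grey not called. Both copies of *pgam1* lie far to the vegetal side, *pdhb.S* lies farthest to the animal side, and the point of *hk1.L* is not a measured size because 2 of the 3 animal arrays were not above background.

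Phosphoglycerate mutase, which moves the phosphate group of phosphoglycerate ahead of the enolase step, showed the largest measured difference of any enzyme on the list. *pgam1.L* (probe set Xl2.11442.1.S1_at) read 493, 471 and 429 on the animal arrays and 2584, 2213 and 2711 on the vegetal arrays. It was 5.38-fold higher at the vegetal pole (95% confidence interval 4.71 to 6.14, limma adjusted p = 1.37e-11). By the size of its fitted difference it stood at place 110 of the 1905 genes called higher in vegetal samples, an order that also holds genes with only a bound. The other copy, *pgam1.S* (Xl2.46324.1.S1_at), read 1041, 1011 and 927 on the animal arrays and 3435, 2671 and 3128 on the vegetal arrays. It was 3.09-fold higher at the vegetal pole (2.70 to 3.53, limma adjusted p = 1.3e-09). For both copies the lowest vegetal array lay far above the highest animal array, and the calls were kept in all 15 alternatives that set no minimum fold. Each copy had a single probe set, so the alternative that averages all probe sets could not change its value.

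**Figure D2:**
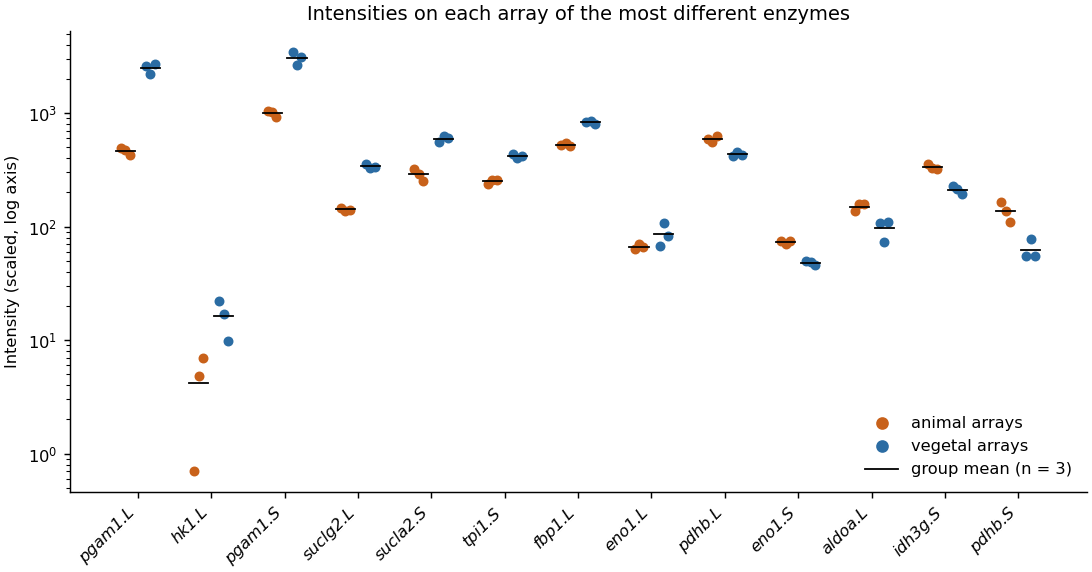
Scaled intensity (log axis) on each array for the 11 enzymes that were called with a difference of at least 1.5-fold, and for *eno1.L* and *pdhb.L*; orange points are animal arrays, blue points vegetal arrays and lines group means (n = 3). The groups are apart for every gene shown except *eno1.L*, and *hk1.L* is near background on the animal arrays.

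The enzymes on either side of the mutase differed less, and not in 1 direction. Triose phosphate isomerase, which interconverts the pieces of the split sugar, was measured by *tpi1.S* (Xl2.8272.1.S1_at) at 238, 255 and 255 on the animal and 433, 402 and 415 on the vegetal arrays, 1.67-fold higher at the vegetal pole (1.46 to 1.91, limma adjusted p = 7.78e-06). That call ended with the mean of all its probe sets (-0.21, limma adjusted p = 0.247). Glyceraldehyde phosphate dehydrogenase and phosphoglycerate kinase, the next steps, each had 1 gene that was higher at the vegetal pole. *gapdh.S* read 84.3 ± 9.96 (SD, n = 3) on the animal arrays and 117 ± 5.1 (SD, n = 3) on the vegetal ones, 1.40-fold (limma adjusted p = 0.00946), and *pgk1.L* read 194 ± 22 (SD, n = 3) and 263 ± 22 (SD, n = 3), 1.36-fold (limma adjusted p = 0.00475). Both calls ended after scaling to the spiked controls (limma adjusted p = 0.408 and 0.451). The *gapdh.L* probe set missed the threshold (-0.28, limma adjusted p = 0.281), and a probe set annotated *pgk1* without a copy name did so too (0.23, limma adjusted p = 0.302).

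Control probe sets along the *gapdh* transcript gave different pictures by position. The one nearest the 3′ end read 106, 146 and 135 on the animal and 139, 165 and 196 on the vegetal arrays, while the one nearest the 5′ end read 24.5, 34.1 and 34.2 on the animal and 20.0, 21.2 and 26.8 on the vegetal arrays. The groups overlapped for each. Dividing the first by the second gave 4.18 ± 0.19 (SD, n = 3) on the animal arrays and 7.35 ± 0.41 (SD, n = 3) on the vegetal ones (two-sided exact permutation p = 0.1, the smallest that 3 arrays against 3 allow). Against the control in the middle of the transcript, the 3′ ratio was 2.16 ± 0.25 (SD, n = 3) on the animal arrays and 2.74 ± 0.39 (SD, n = 3) on the vegetal ones, with overlap (two-sided exact permutation p = 0.2). The actin control at the 3′ end overlapped between the poles, at 616 to 716 on the animal and 575 to 631 on the vegetal arrays, while that in the middle did not, at 84.3 to 101 on the animal and 42.9 to 50.7 on the vegetal arrays. The 3′ to 5′ ratio of *gapdh* and the middle actin control thus moved with the poles, and their part in the differences of *gapdh* and the other enzymes was not tested.

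The last steps of glycolysis included genes that were higher in animal samples. Enolase, which forms phosphoenolpyruvate, was measured by *eno1.S* (Xl2.26162.1.S1_at) at 74.4, 70.7 and 74.3 on the animal and 49.2, 48.6 and 46.0 on the vegetal arrays. It was 1.53-fold higher at the animal pole (1.21 to 1.93, limma adjusted p = 0.00497). Pyruvate kinase makes pyruvate and ATP, and its *pkm.S* gene read 64.5 ± 6.5 (SD, n = 3) on the animal arrays and 43.8 ± 2.1 (SD, n = 3) on the vegetal ones, 1.47-fold (limma adjusted p = 0.0143). The call of *pkm.S* ended after quantile normalization (limma adjusted p = 0.0691), after median centring (0.0626) and without animal replicate 1 (0.066). *pkm.L* read 65.7 to 102 on the animal and 57.7 to 93.7 on the vegetal arrays, and its difference of 0.18 did not pass (limma adjusted p = 0.47).

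Upstream, aldolase, which splits fructose bisphosphate, was higher in animal samples by 1 of its genes. *aldoa.L* (Xl2.28892.2.S1_a_at) read 137, 157 and 156 on the animal and 107, 72.7 and 109 on the vegetal arrays, 1.58-fold higher at the animal pole (1.25 to 2.01, limma adjusted p = 0.00293). The mean with its other probe set, which was at background, came to -0.33 (log2, limma adjusted p = 0.466). *aldoc.L*, at 133.5 ± 18.4 (SD, n = 3) on the animal arrays and 138 ± 3.7 (SD, n = 3) on the vegetal ones, did not pass (limma adjusted p = 0.735).

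Hexokinase, which traps glucose in the cell by phosphorylating it, was represented by *hk1.L* and *hk2.L*. *hk1.L* (Xl2.726.1.S2_at) read 0.7, 4.8 and 7.0 on the animal and 22.1, 16.8 and 9.8 on the vegetal arrays. All 3 vegetal arrays and 1 of the 3 animal arrays were above background. With background in place of any lower value, the vegetal geometric mean was at least 2.88-fold higher (limma adjusted p = 0.00651). This bound does not cover the spread between arrays. *hk1.L* was dim, passed the filter on low intensity only through its vegetal values and had to differ, so that p-value is no support. It stays in the counts of calls. The call ended with no filter (limma adjusted p = 0.114). The other *hk1.L* probe set, at 0.2 to 3.4, was not above background on any array. *hk2.L*, brighter, read 107 to 115 on the animal and 104 to 126 on the vegetal arrays (limma adjusted p = 0.798). Glucose phosphate isomerase (*gpi.S*) was at 0.01 (log2, limma adjusted p = 0.97; 95% confidence interval -0.21 to 0.22), and phosphofructokinase of the muscle type (*pfkm.S*) was at -0.31 (limma adjusted p = 0.137).

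Of the glycolytic genes, 3 were under the filter. *pfkp.L* (4.7 to 10.7), *pfkp.S* (0.2 to 2.4) and *eno3.L* (0.8 to 4.3) were at or near background. Of the 4 lactate dehydrogenase genes only *ldhb.S* passed the filter, at 201, 191 and 221 on the animal and 205, 277 and 246 on the vegetal arrays, with overlapping groups (limma adjusted p = 0.109). The other lactate dehydrogenase genes stayed low: *ldha.L* and *ldha.S* read at most 6.8 on any array. *ldhb.L* read 0.4, 0.4 and 5.2 on the animal and 4.8, 7.1 and 7.4 on the vegetal arrays, where all 3 were just above background, and it was not tested.

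The pentose phosphate path had 1 call in each direction. Of its 6 tested genes, 33.3% were called, 1 toward each pole, a share not above the 50.9% of all genes tested. The other 4 missed the threshold. *rpia.L*, the isomerase of ribose and ribulose phosphates, read 722, 697 and 595 on the animal and 852, 882 and 832 on the vegetal arrays, 1.28-fold higher at the vegetal pole (1.12 to 1.46, limma adjusted p = 0.00334). That call ended after scaling to the spiked controls (limma adjusted p = 0.569). *pgd.L*, the dehydrogenase that makes NADPH and ribulose phosphate, read 109, 114 and 102 on the animal and 84.4, 69.1 and 85.5 on the vegetal arrays, 1.36-fold higher at the animal pole (1.10 to 1.69, limma adjusted p = 0.0171). Its call ended after quantile normalization (limma adjusted p = 0.0977), after median centring (0.101), without animal replicate 2 (0.0692) and without vegetal replicate 2 (0.0686). The lactonase *pgls.S*, the epimerase *rpe.S*, transketolase (*tkt.L*) and transaldolase (*taldo1.L*) lay between -0.11 and 0.27 (log2), and *pgls.S* was dim, at 7.5 to 12.3.

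At the pyruvate step, both copies of the beta subunit of pyruvate dehydrogenase were higher in animal samples. The enzyme's first component is built from alpha and beta subunits. *pdhb.S* (Xl2.372.1.S1_a_at) read 166, 138 and 109 on the animal and 55.3, 77.6 and 55.3 on the vegetal arrays, 2.19-fold higher at the animal pole (1.67 to 2.87, limma adjusted p = 0.000114). *pdhb.L* read 591, 556 and 631 on the animal and 420, 454 and 423 on the vegetal arrays, 1.37-fold (1.21 to 1.56, limma adjusted p = 0.000429). Neither gene's groups overlapped, and both calls were kept in all 15 alternatives that set no minimum fold. Both genes had a single probe set, which averaging all probe sets could not change. The alpha subunit genes did not pass: *pdha1.L* was at 0.05 (limma adjusted p = 0.702) and *pdha1.S* at 0.21 (limma adjusted p = 0.115). The acetyltransferase core *dlat.L* was at 0.11 (limma adjusted p = 0.4) and the shared dehydrogenase *dld.S* at -0.12 (limma adjusted p = 0.478). In alternatives, *dlat.L* passed with the mean of all its probe sets (0.59, limma adjusted p = 0.0406). That mean takes in a probe set under the filter, at 5 to 8.9 on the animal and 1.6 to 5.5 on the vegetal arrays. The other tested probe set of *dlat.L*, at 0.31, did not pass (limma adjusted p = 0.131). *pdha1.S* passed without animal replicate 3 (limma adjusted p = 0.0494), and *dlat.L* and *pdha1.S* were then higher in animal samples. Whether the beta subunit differed from the other subunits was not tested.

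Of 12 tested citrate cycle genes 3 were higher in animal samples, 3 in vegetal samples and 6 did not pass, shares close to the 27.1% and 23.7% of all genes tested. Succinyl-CoA ligase, which gains a nucleotide triphosphate from succinyl-CoA, had both of its alternative beta subunits higher in vegetal samples by their brightest probe sets. *suclg2.L* (Xl2.5442.1.S1_at), the subunit of the GTP-forming enzyme, read 145, 138 and 141 on the animal and 358, 328 and 338 on the vegetal arrays. It was 2.41-fold higher at the vegetal pole (2.08 to 2.79, limma adjusted p = 6.72e-08), and the call was kept in all 15 alternatives that set no minimum fold. *sucla2.S* (Xl2.10041.1.S1_at), the subunit of the ATP-forming enzyme, read 323, 290 and 251 on the animal and 558, 626 and 603 on the vegetal arrays, 2.08-fold (1.78 to 2.42, limma adjusted p = 6.91e-07). The call of *sucla2.S* ended with the mean of all its probe sets (-0.34, limma adjusted p = 0.238), an alternative that could not change *suclg2.L*, which had a single probe set. The mean takes in Xl2.9091.1.S2_at and Xl2.10041.2.S1_at, which were not above background on any array. The shared alpha subunit *suclg1.L* was dim, at 22.9 to 31.1 on the animal and 24 to 55.9 on the vegetal arrays, and did not pass (-0.49, limma adjusted p = 0.173). Its other tested probe sets, dimmer still, lay on both sides of 0, at 0.61 and -0.28 (log2). Neither passed (limma adjusted p = 0.132 and 0.564).

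The isocitrate dehydrogenases were split. The NAD-dependent enzyme of mitochondria carries alpha, beta and gamma subunits, of which gamma has a regulatory role. *idh3g.S* (Xl2.25723.2.S1_a_at), the gamma subunit, read 358, 327 and 321 on the animal and 227, 212 and 193 on the vegetal arrays. It was 1.59-fold higher at the animal pole (1.37 to 1.85, limma adjusted p = 6.16e-05) and kept its call in all 15 alternatives that set no minimum fold. *idh3b.S* read 2.0 to 5.6 on the animal and 6.3 to 8.6 on the vegetal arrays, under the filter. The NADP-dependent mitochondrial enzyme *idh2.S* read 666 ± 27 (SD, n = 3) on the animal arrays and 788 ± 49 (SD, n = 3) on the vegetal ones, 1.18-fold (limma adjusted p = 0.0216). That call ended after scaling to the spiked controls (limma adjusted p = 0.998), without the mean-variance trend (0.0809), and when animal replicate 1 (0.0723), vegetal replicate 2 (0.0859) or vegetal replicate 3 (0.0508) was left out.

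Among the other cycle enzymes, 2-oxoglutarate dehydrogenase and malate dehydrogenase each had 1 gene higher in animal samples. *ogdh.L* read 613, 537 and 500 on the animal and 390, 420 and 437 on the vegetal arrays, 1.32-fold (1.15 to 1.52, limma adjusted p = 0.00258). *mdh2.L* read 164, 153 and 133 on the animal and 108, 107 and 108 on the vegetal arrays, 1.39-fold (1.15 to 1.68, limma adjusted p = 0.00561). Both calls were kept in all 15 alternatives that set no minimum fold, of which the mean of all probe sets could not change these genes, each with a single probe set. Citrate synthase (*cs.L*), which starts the cycle, was bright and close to even, at 1903, 2205 and 2459 on the animal and 2460, 1997 and 2275 on the vegetal arrays (-0.04, 95% confidence interval -0.25 to 0.17, limma adjusted p = 0.764). The succinyltransferase *dlst.S* had separate groups, 780 to 880 on the animal and 914 to 939 on the vegetal arrays, and a difference of -0.14 that did not pass (limma adjusted p = 0.137).

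The cytosolic relatives of cycle enzymes did not pass. *aco1.L*, the cytosolic aconitase that also acts as an iron sensor, was at -0.49 (limma adjusted p = 0.0852), *idh1.L* at 0.07 (limma adjusted p = 0.827) and *mdh1.S* at -0.06 (limma adjusted p = 0.797). For *aco1.L* the call depended on the arrays and scaling. It passed without animal replicate 2 and without vegetal replicate 1, after quantile normalization and after median centring, with limma adjusted p from 0.0197 to 0.433 over its 15 alternatives.

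Gluconeogenesis was represented by fructose bisphosphatase and the phosphoenolpyruvate carboxykinases. *fbp1.L* (Xl2.5798.1.S1_a_at), which removes the phosphate that phosphofructokinase adds, read 518, 547 and 513 on the animal and 834, 849 and 800 on the vegetal arrays. It was 1.57-fold higher at the vegetal pole (1.40 to 1.77, limma adjusted p = 5.63e-06), with groups well apart, and kept its call in all 15 alternatives that set no minimum fold. With a single probe set, *fbp1.L* could not change in the alternative that averages all probe sets. The mitochondrial carboxykinase *pck2.L* was at 0.11 (limma adjusted p = 0.396). The genes of the cytosolic one, *pck1.L* and *pck1.S*, read 0.1 to 3.7 on all arrays, at or under background.

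Grouped by place in the cell, 4 of 28 tested cytosolic enzymes were higher at the animal and 8 at the vegetal pole. Of 19 mitochondrial ones, 5 were higher at the animal and 3 at the vegetal pole. The shares called, 42.9% and 42.1%, were below the 50.9% of all genes tested, and the difference between the compartments was not tested.

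The copies of 1 enzyme could differ from each other in how they were split between the poles. Both copies were tested for 8 enzymes, and the .L minus .S log2 ratio of each array was compared between the poles in a fit over all 1357 genes with both copies tested. The copies differed for 3 of the 8 (limma adjusted p under 0.05), *pgam1*, *eno1* and *pdhb*, against 43.6% of all such pairs. For *pgam1* the .L to .S ratio of intensities was 0.474, 0.466 and 0.463 on the animal and 0.752, 0.829 and 0.867 on the vegetal arrays. The .L copy was thus the more vegetal, by 0.80 (log2, 95% confidence interval 0.56 to 1.04, limma adjusted p = 0.00108). For *eno1* the ratio was 0.851, 0.994 and 0.882 on the animal and 1.38, 2.21 and 1.80 on the vegetal arrays (limma adjusted p = 0.00636). Its copies lay on opposite sides of 0, *eno1.S* at 0.61 and *eno1.L* at -0.35 (log2), and *eno1.L*, with 63.3, 70.3 and 65.5 on the animal and 67.8, 108 and 82.9 on the vegetal arrays, did not pass by itself (limma adjusted p = 0.112).

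The difference between the *pdhb* copies was near the threshold (limma adjusted p = 0.0435), with ratios of 3.57, 4.03 and 5.81 on the animal and 7.59, 5.84 and 7.64 on the vegetal arrays. It was lost after quantile normalization (limma adjusted p = 0.0782), with no filter (0.0903), and without animal replicate 1 (0.129), animal replicate 2 (0.122), vegetal replicate 1 (0.107) or vegetal replicate 3 (0.108). Among the other 5 pairs, *ogdh* came nearest, at 0.39 (95% confidence interval 0.01 to 0.76, limma adjusted p = 0.0865). *gapdh*, *mdh2*, *pdha1* and *pkm* had intervals that held 0, the widest that of *mdh2*, from -0.49 to 1.03. Probe sets designed on 1 copy may also bind the other.

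**Figure D3:**
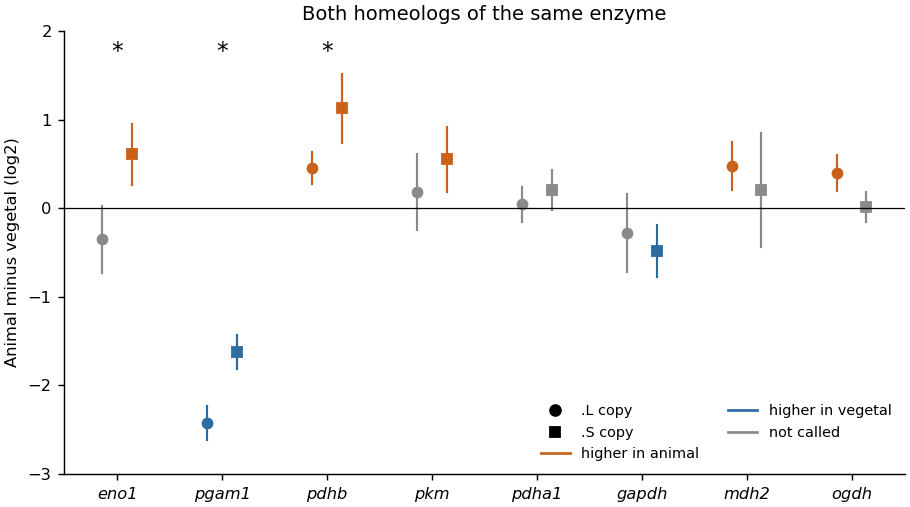
Difference between animal and vegetal samples (log2, vertical axis) of the .L copy (circles) and the .S copy (squares) of the 8 enzymes with both copies tested, with 95% confidence intervals; colours give the call of each copy and an asterisk marks the 3 enzymes whose copies differed from each other. The copies of *pgam1* are both vegetal and apart by 0.80, and those of *eno1* lie on opposite sides of 0.

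Several enzymes were read by more than 1 probe set, and these did not always give the same answer. Of 10 enzymes with over 1 tested probe set, 5 had 1 that passed and another that did not, and none had calls both ways. *sucla2.S* was called by its brightest probe set, but a second one read 287, 235 and 277 on the animal and 318, 282 and 326 on the vegetal arrays, at -0.22 (limma adjusted p = 0.105). *tpi1.S* was at -0.74 by its brightest probe set and at -0.08 and 0.19 by the others, which did not pass (limma adjusted p = 0.681 and 0.518).

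For *idh3a.S*, the alpha subunit of the NAD-dependent isocitrate dehydrogenase, the probe sets went different ways. The brightest (Xl2.15952.1.S1_at) read 43.3, 40 and 37.6 on the animal and 37.6, 50.2 and 62.9 on the vegetal arrays, at -0.29 (limma adjusted p = 0.273). The other (Xl2.54493.2.S1_s_at) read 36.2, 52.1 and 45.1 on the animal and 19.2, 16.6 and 9.3 on the vegetal arrays, 3.06-fold higher at the animal pole (1.99 to 4.72, limma adjusted p = 0.000298). For *cs.L*, 1 of 4 probe sets was called, 1.26-fold higher at the animal pole (limma adjusted p = 0.00395), while the others were at -0.04 to 0.18. The probe sets of *idh3g.S* lay close together, at 0.67 and 0.72 (log2), but the second was dim, at 5.9 to 12.2, and did not pass (limma adjusted p = 0.102).

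**Figure D4:**
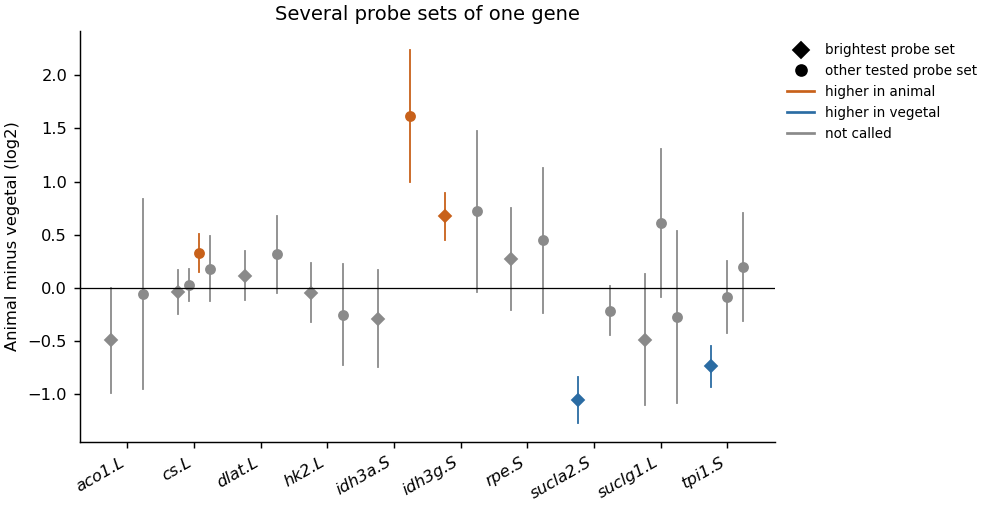
Difference between animal and vegetal samples (log2, vertical axis) for every tested probe set of the 10 enzymes with more than 1, with 95% confidence intervals; diamonds are the brightest probe set of a gene, circles the others, and colours give the call. Probe sets of *idh3g.S* lie together, though only the brightest was called, while those of *idh3a.S*, *suclg1.L*, *sucla2.S* and *tpi1.S* are spread.

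Scaling the arrays in other ways shifted the enzymes relative to 0 along with all other genes. The median of all genes tested was at 0.03 (log2) with the deposited scaling, at -0.02 with quantile normalization, at -0.12 with array medians set equal and at 0.27 with spiked controls set equal. Of the 20 called enzymes, 10 kept their call in every alternative that sets no minimum fold, namely *pgam1.L*, *pgam1.S*, *suclg2.L*, *fbp1.L*, *eno1.S*, *idh3g.S*, *pdhb.L*, *pdhb.S*, *ogdh.L* and *mdh2.L*. Among these only *idh3g.S* had more than a single probe set. For the rest, the mean of all probe sets could not change the value, so that alternative was no check on them. The other 10 called enzymes lost their call, or with *aldoa.L* changed sign, in at least 1 of these alternatives. A minimum of 2-fold leaves 6 of the 20, *pgam1.L*, *pgam1.S*, *suclg2.L*, *sucla2.S*, *hk1.L* and *pdhb.S*. Of these, *hk1.L* had to differ. Among all 8026 genes tested, 638 were called higher at the animal and 527 at the vegetal pole by at least 2-fold.

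**Figure D5:**
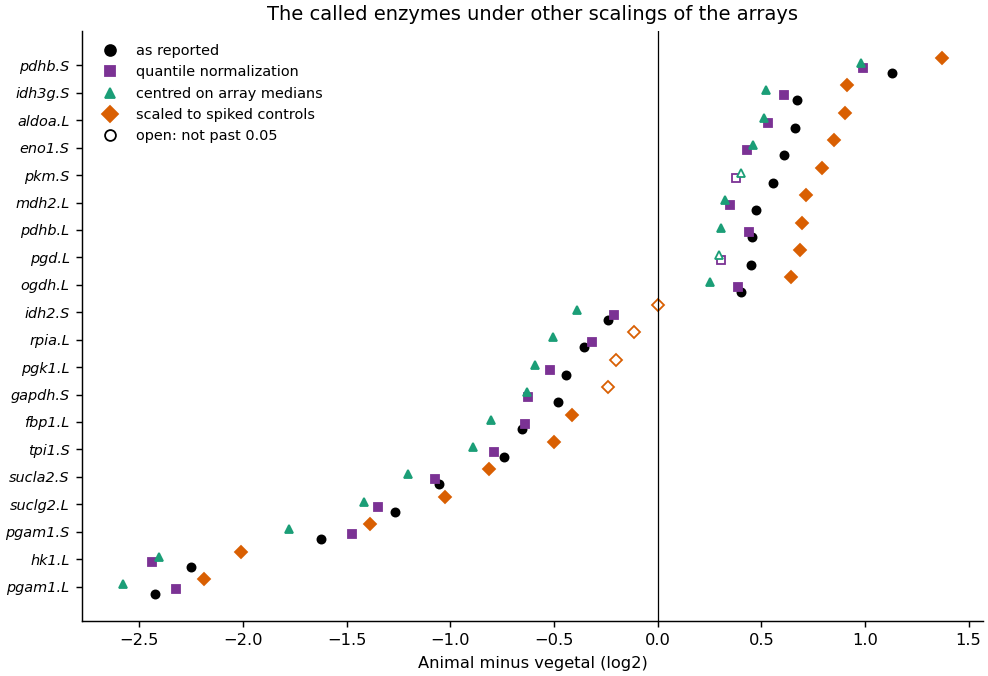
Difference between animal and vegetal samples (log2, horizontal axis) of the 20 called enzymes as deposited and under 3 other scalings of the arrays; filled symbols passed the threshold and open ones did not. Scaling to the spiked controls shifts all points toward the animal side, though 7 enzymes stay called higher in vegetal. It leaves *idh2.S* close to 0, whereas both copies of *pgam1* stay at or below -1.39 throughout.

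Other genes around the same pathways, named in a separate list that included regulators, transporters and glycogen enzymes, were called in 45.6% of cases, against 50.9% of all genes tested. Of 69 on the array 57 were tested, of which 13 were higher at the animal pole, 13 at the vegetal pole and 31 did not pass, with a median of 0.03 (log2). *prps1.L*, named after its values were seen, counts as vegetal by its brightest probe set (-0.81, limma adjusted p = 1.95e-06). Its other probe set (Xl2.16570.1.S2_at) was called the other way, 4.34-fold higher at the animal pole (limma adjusted p = 9.52e-10). The animal count moved from 8 to 13 over fits that left out 1 array, with 8 without animal replicate 1. It was 8 after median centring and 21 with spiked controls set equal.

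The largest called difference among them was in *pdpr.S*, the regulatory subunit of pyruvate dehydrogenase phosphatase. It read 157, 145 and 108 on the animal and 508, 539 and 508 on the vegetal arrays, 3.85-fold higher at the vegetal pole (3.18 to 4.65, limma adjusted p = 8.96e-09). Its other copy, *pdpr.L*, was at 0.21 (limma adjusted p = 0.0631), and the copies differed by 2.16 (log2, limma adjusted p = 0.000197). *pdp2.S*, a catalytic subunit of that phosphatase, was 2.28-fold higher at the vegetal pole (1.66 to 3.14, limma adjusted p = 0.000299). *pdp1.L*, the other catalytic subunit, named after its values were seen, went the other way by its brightest probe set, at 49.9, 49.0 and 42.3 on the animal and 38.3, 34.0 and 20.6 on the vegetal arrays, 1.57-fold (1.10 to 2.25, limma adjusted p = 0.0356). Its other tested probe sets, at 0.09 and -0.15 (log2), did not pass. The phosphatase switches pyruvate dehydrogenase on by removing phosphate from its alpha subunit.

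*pfkfb3.S*, whose enzyme makes and removes the fructose bisphosphate that activates phosphofructokinase, read 922, 965 and 844 on the animal and 2010, 1999 and 1963 on the vegetal arrays, 2.19-fold higher at the vegetal pole (1.96 to 2.45, limma adjusted p = 8.68e-09). A second probe set, at 593 to 717 on the animal and 896 to 1022 on the vegetal arrays, was 1.47-fold higher there (limma adjusted p = 0.000124). Another tested one, dim at 2.8 to 19.2, did not pass (limma adjusted p = 0.562). *pygl.S*, the liver-type glycogen phosphorylase, read 194, 190 and 183 on the animal and 81.1, 57.2 and 90.2 on the vegetal arrays, 2.53-fold higher at the animal pole (1.995 to 3.20, limma adjusted p = 5.83e-06). *gpd1.L*, a glycerol phosphate dehydrogenase, and *slc25a12.L*, a mitochondrial aspartate and glutamate carrier, were dim on vegetal arrays, of which 1 of 3 and 2 of 3 were above background. They were at least 2.74-fold (limma adjusted p = 0.0106) and at least 2.56-fold (limma adjusted p = 0.00321) higher in animal samples. *slc25a12.L*, at 6.1 to 6.6 on the vegetal arrays, passed the filter on low intensity only through its animal values and had to differ, so its p-value is no support. It stays in the counts of calls.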

How the data were processed

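Total RNA was amplified, labelled with biotin and read on 6 one-colour oligonucleotide arrays, per the labels' protocols. The authors deposited linear intensities, a single value for each probe set on each array, from the GCOS software, per the submitters' processing notes; its settings and any genome build are not stated in them. Of 32635 probe sets 96 were controls. Of the others, 15495 had 1 gene symbol, 279 several and 16765 none in the platform annotation, which can be old. Gene IDs of 15384 matched the Xenopus_laevis_v10.1 gene table. No sequences and no coordinates were used.

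Values under 1 were set to 1 before log2, and the dimmest 40% of probe sets by mean over all arrays were left out, leaving 19523, with 6188 called higher at the animal and 4007 at the vegetal pole. The fit used limma 3.58.1 in R 4.3.3 (lmFit and eBayes with trend; two-sided; Benjamini-Hochberg over all tested probe sets, threshold 0.05). It was tested on simulated data. The number of arrays limits the precision. Enzymes named with values on every array passed the threshold by at least 1.5-fold or had copies that differed; values of other enzymes were added after they had been seen, and of the other pathway genes up to 6 were named by largest called difference, with the other copy of 1 of them. Lists and members were chosen with earlier results of these data known.

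Alternatives were other scalings, filters, floor, variance model, a replicate block, leaving out each array, the mean of all probe sets and, for counts of calls, a 2-fold minimum. The mean of all probe sets could not change the value of a gene with a single probe set.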

Additional observations from a re-analysis of the deposited data

How the results depend on the processing

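Same-numbered arrays did not deviate together (correlations of their deviations from the group means of -0.0229, 0.00628 and -0.0135). With the replicate number as a block, the enzymes' counts stayed at 9 and 11, the other pathway genes' at 13 and 13, and the probe sets' were 6017 and 3858, while 2 pairs of copies differed, that of *pdhb* falling just short (limma adjusted p = 0.0511). Leaving out 1 array at a time gave 8 to 10 enzymes higher at the animal and 10 to 15 at the vegetal pole, 5318 to 5894 and 3496 to 3835 probe sets, 8 to 13 and 11 to 13 other pathway genes, and 2 to 3 pairs of copies. A 2-fold minimum left 1 of the 47 tested enzymes higher at the animal and 5 at the vegetal pole, *hk1.L* among the 5. Of all 8026 genes tested it left 638 and 527. It also left 2263 and 1415 probe sets, 3 and 4 other pathway genes, and 0 of the 3 called pairs of copies. Scaling to the spiked controls left 7 enzymes and 1980 probe sets higher at the vegetal pole and gave 21 other pathway genes higher at the animal pole, which numbered 8 after median centring and 8 with no filter. With every probe set averaged, *aldoa.L* was at -0.33 (limma adjusted p = 0.466) and *idh3a.S* at 0.66 (limma adjusted p = 0.0136), in each case by taking in a probe set that was dimmer. Of 27 enzymes that did not pass, 10 passed in at least 1 alternative. Genes near background, such as *hk1.L*, have no measured size.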
